A study of Drosophila melanogaster with 4 samples.

Results

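The circular RNAs (circRNAs) of CG17646, a fruit fly gene for an ABC transporter, were taken from a table of circRNAs examined by ribosome footprinting of Drosophila melanogaster heads. They are the rows whose name, before the last colon, is CG17646. There were 22 of them among 2563 listed circRNAs (0.858%). The gene was chosen by its number of listed circRNAs, so that number is a description and supports nothing. Footprinting sequences the short RNA fragments that ribosomes protect from digestion. The study had 4 libraries of heads, 2 from lysis in a low detergent buffer and 2 in a high detergent buffer. According to the protocols in the labels, an earlier homogenization method served for head samples 1 and 2, and for head samples 3 and 4 a set of 200 frozen heads was lysed in 500 µl of buffer with 0.1% Triton X-100 and cycloheximide, a drug that holds ribosomes on the RNA. The labels used here state no strain, genotype, sex or age. Which library column belonged to which buffer could not be told from the labels, so no detergent comparison was made, and the only read count used is the authors' count over all samples. It has no replicate error. The table counts circRNA reads alone, so the head label could not be checked against marker genes.

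ABC transporters move lipids, pigments, drugs and other molecules across membranes with energy from ATP. CG17646 belongs to the ABCG subfamily, and RefSeq's gene table gives ABCG1 as a synonym. ABCG proteins carry a single ATP-binding domain followed by a membrane domain and work in pairs, and the subfamily includes the fly eye pigment transporter genes white, brown and scarlet. A circRNA is a closed ring made by back-splicing, in which the donor site at the end of an exon is joined to the acceptor site in front of that exon or of one upstream. A back-splice start below is the acceptor side and a back-splice end the donor side, since CG17646 lies on the plus strand.

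All 22 rows carried 1 RefSeq accession and lay on chromosome 2L between 1741633 and 1748874 in build dm3, an extent of 7242 bp. No row named for another gene overlapped this extent. Positions are counted from 1, on the reading that the table counts its first coordinate from 0. CG17646 has 2 annotated transcripts of 12 exons each, which differ in exon 1 and share exons 2 to 12. The annotated start codon is in exon 2, after 41 bases of 5′ untranslated sequence, and the stop codon is in exon 12. The coding sequence of 2298 bases encodes 766 residues. The annotation was on a later build, so exons were placed on the table by distances alone. The best placement put 11 of the 20 distinct circRNA ends exactly on exon ends, and the next best put 1 there. The exons, exon bases and residues given below for a circRNA are those annotated between its start and its end. Splicing inside the circRNAs was not observed, so a skipped exon or a kept intron would not be seen.

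The 22 circRNAs drew on few ends, which they combined in many ways. They had 9 distinct starts and 11 distinct ends. Of the starts, 4 were used by more than 1 circRNA, and these 4 carried 17 of the 22. Of the ends, 6 were used more than once, and they also carried 17. Both ends were shared with another listed circRNA in 16 of the 22.

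**Figure D1:**
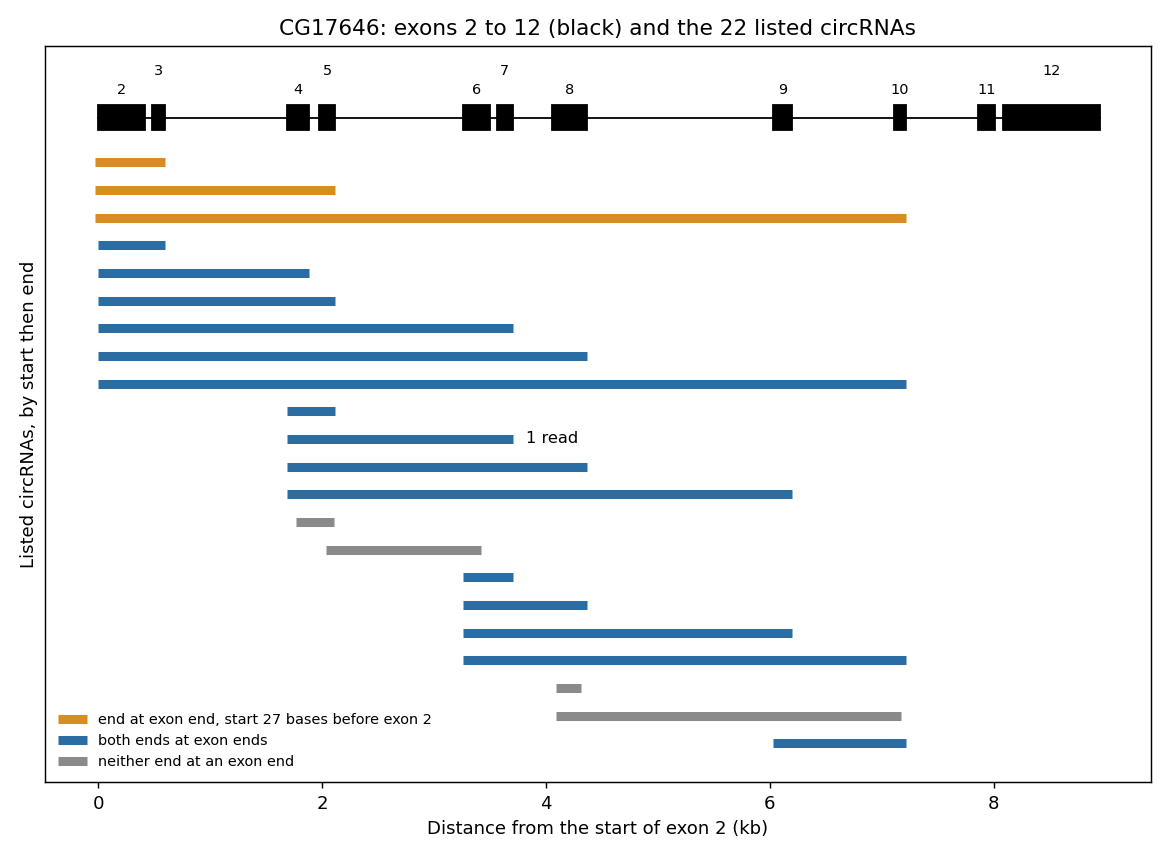
Map of CG17646 with the distance from the start of exon 2 in kb on the horizontal axis. Black boxes are exons 2 to 12 with their numbers, and each bar is 1 of the 22 listed circRNAs, coloured by whether its ends lie on exon ends (15 at both ends, 3 at the end alone, 4 at neither). Bars stack under the shared starts of exons 2, 4 and 6 and the one just before exon 2, none reaches exon 11, and 1 bar carries the single footprint read.

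The most used start was the start of exon 2, at 1741660, which is 41 bases before the start codon. It was joined to 6 ends, those of exons 3, 4, 5, 7, 8 and 10. The resulting spans on the genome, introns included, were 601, 1881, 2120, 3702, 4370 and 7215 bp. By the annotation, the smallest holds the coding sequence for residues 1 to 165. The largest holds that for residues 1 to 599, or 78.2% of the coding sequence.

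The start of exon 4, at 1743345, was joined to 4 ends, those of exons 5, 7, 8 and 9, with spans of 435, 2017, 2685 and 4516 bp. The start of exon 6, at 1744923, was also joined to 4 ends, those of exons 7, 8, 9 and 10, with spans of 439, 1107, 2938 and 3952 bp. The start of exon 9, at 1747692, appeared once, joined to the end of exon 10 over 1183 bp. These 9 circRNAs lie wholly in coding sequence and hold no start codon.

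Among the ends, that of exon 10 at 1748874 was used most, by 4 circRNAs. The ends of exon 5 at 1743779, exon 7 at 1745361 and exon 8 at 1746029 were used by 3 each. Those of exon 3 at 1742260 and exon 9 at 1747860 were used by 2 each, and that of exon 4 at 1743540 by 1. No circRNA held the stop codon, and none reached exon 11 or 12 or included exon 1.

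A further start lay at 1741633, which is 27 bases before exon 2, in the annotated intron 1. It was used by 3 circRNAs, which ended with exons 3, 5 and 10. Each of these ends was also joined to the annotated start of exon 2, so the list holds 3 pairs that differ by 27 bases, with spans of 628 against 601 bp, 2147 against 2120 bp and 7242 against 7215 bp. All 3 hold the start codon. They bring the circRNAs of CG17646 with the start codon to 9.

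The remaining 4 circRNAs had neither end on an exon end, and all their ends lay inside exons. The first ran from 1743430, 85 bases into exon 4, to 1743762, 17 bases before the end of exon 5. The second ran from 1743694, 60 bases into exon 5, to 1745075, 86 bases before the end of exon 6. The third, from 1745750 to 1745972, lay within exon 8 and at 223 bp was the shortest of the gene. The fourth began 3 bases after it, at 1745753, and ended at 1748830, 44 bases before the end of exon 10. None of these 4 shared an end with any other listed circRNA.

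In all, 15 of the 22 spans equalled an exon block, a stretch that opens with an exon start and closes with the end of that exon or one downstream (68.2%, 95% exact binomial interval 45.1% to 86.1%). The background over the whole table was 76.1%. The interval treats the 22 circRNAs as independent, but 16 of them share both ends with another listed circRNA. It is therefore no test against the background. The same 15 circRNAs had both ends on exon ends when the exons were placed by distance. When 1 to 11 bases were added to or taken from the spans, 0 or 1 of them matched. Of the 15, 6 hold the start codon, against a background of 37.9% of the assigned circRNAs in the table, so this share is close to the background. All 6 share 1 back-splice start, that of exon 2, so they are not separate outcomes and this is no test either.

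The 4 exon starts and 7 exon ends in use can be combined, in gene order, in 19 ways. The list held 15 of these (78.9%). The 4 missing ones were exons 2 to 9, exons 4 to 10, exon 4 alone and exon 9 alone. All blocks of the 10 internal exons would number 55, so the list held 27.3% of those.

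**Figure D2:**
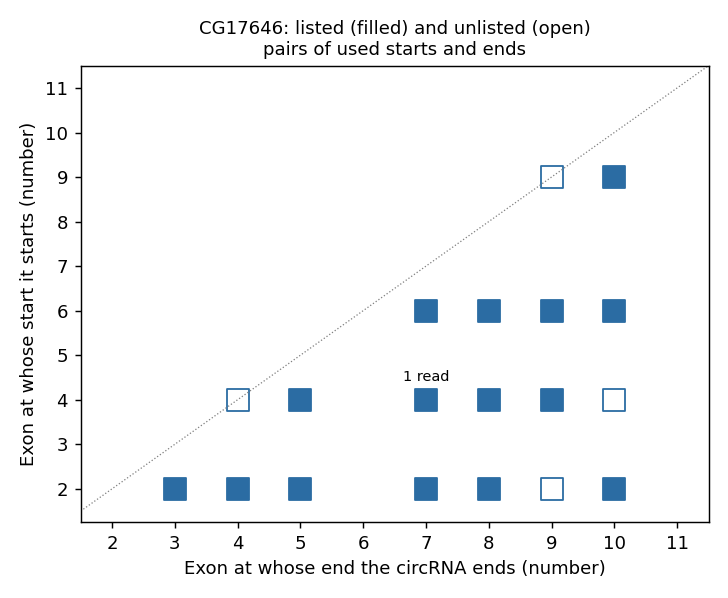
Pairs of exon starts (vertical axis, exon number) and exon ends (horizontal axis, exon number) used by CG17646 circRNAs. Filled squares are the 15 listed pairs and open squares the 4 that are not listed, and the dotted line marks circRNAs of 1 whole exon, of which there are none among the 15.

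None of the 15 CG17646 circRNAs at exon blocks consisted of 1 exon, whereas 19.1% of the 1918 circRNAs in the table with 1 matching block did in every matching transcript. Counting every annotated exon between their ends, the 15 held between 2 and 9 exons, with a median of 4 against 2 in the table. Their summed annotated exon length ran from 270 to 1838 bases, with a median of 860 against 648.5 bases in the table. Exons 4, 6 and 7 were in the most circRNAs, each held whole by 11 of the 18 whose end lies on an exon end. Exon 10 was held by 4 of the 18.

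Most of the exon starts of CG17646 were not used, and the used ones stood beside longer introns. The 4 used starts follow introns of 3640, 1084, 1143 and 1662 bases, before exons 2, 4, 6 and 9 (9005 bases before exon 2 in the other transcript). The 6 internal exons with an unused start follow introns of 59 to 913 bases, with a median of 225. The groups do not overlap.

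On the donor side most exon ends were used, and the used ones again stood beside longer introns. The 7 used ends precede introns of 93 to 1662 bases, with a median of 913. The 3 unused ends, of exons 2, 6 and 11, precede introns of 66, 59 and 65 bases. Here too the groups do not overlap, though the shortest used one, after exon 4, is close to the unused ones.

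**Figure D3:**
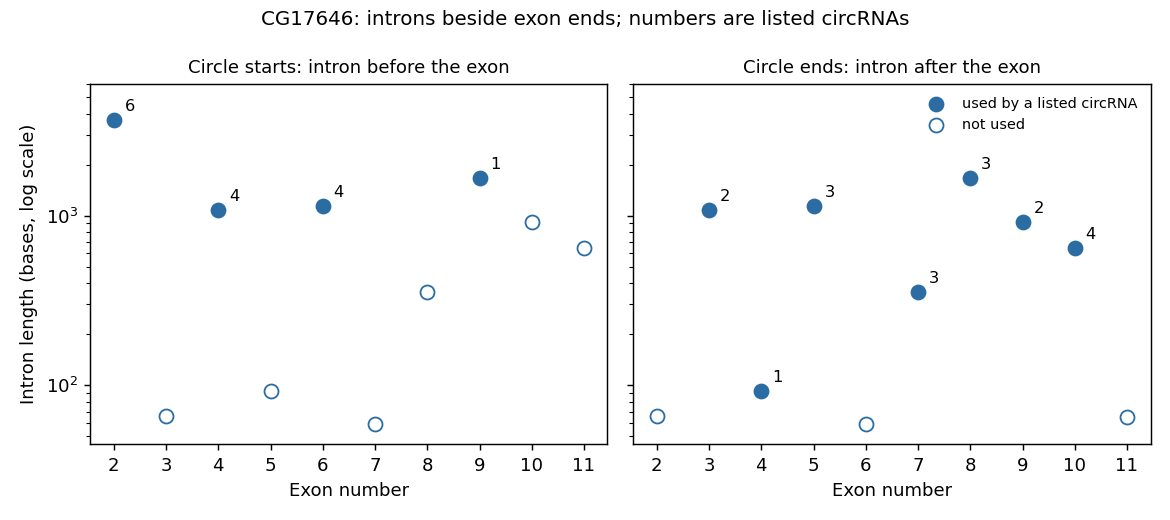
Length of the intron before each internal exon of CG17646 (left) and after it (right), in bases on a log scale, by exon number. Filled points are exon starts or ends used by a listed circRNA, with the number of circRNAs beside them, and open points are not used. All used starts lie at 1084 bases or more and all unused ones at 913 or less, and all used ends lie at 93 or more and all unused ones at 66 or less.

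Neighbouring exons parted by a short intron were mostly held together. This restates which ends were in use and is no further result. None of the 15 ended with exon 2 or 6 or started with exon 3 or 7. Exons 2 and 3, parted by 66 bases, were both present in each of the 6 circRNAs of the 15 that held either. Exons 6 and 7, parted by 59 bases, were both present in all 10 that held either. Exons 4 and 5, parted by 93 bases, were both present in 8 and split in 1, the circRNA of exons 2 to 4. Exons 5 and 6, parted by 1143 bases, were together in 6 and apart in 6. Exons 7 and 8, parted by 357 bases, were together in 7 and apart in 3. Exons 10 and 11, parted by 643 bases, were together in 0 and apart in 3. Exons 11 and 12, parted by 65 bases, were in none of the 15.

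Across the table, exon starts used by a listed circRNA also followed longer introns, with a median of 2591 bases over 1570 internal exon starts against 262 bases over 8642 unused starts of the same host genes. For exon ends the medians were 1922 bases over 1649 used and 185 bases over 8249 unused. Long flanking introns are a known feature of exons that form circRNAs in flies and mammals. The measure that follows was chosen after the introns of CG17646 had been seen, and it is a description with no test. Of 144 host genes with at least 3 used and 3 unused starts, 10 had every used start after a longer intron than every unused one (6.94%), and for ends it was 12 of 155 (7.74%). CG17646 was among both. It was the only 1 of the 118 genes that could be judged on both sides to meet the condition on both. This count changes with the definition. With the longest intron over transcripts in place of the shortest, 2 of 118 genes met it, and with at least 2 used and 2 unused exons 14 of 302 did, CG17646 included each time.

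Footprint reads on the CG17646 circRNAs were few. The single read fell on the circRNA of exons 4 to 7, at 1743345 to 1745361, which spans 2017 bp. Its 722 annotated exon bases all lie in the coding sequence, cover residues 165 to 406 and hold no start codon. The 95% exact Poisson interval of this count is 0.0253 to 5.57 reads. The other 21 had 0 reads, and such a 0 leaves room for a share of 1.30% of the 230 reads in the table (3 reads). The interval and this limit cover counting error only. Thus 1 of 22 circRNAs had a read (4.55%, exact binomial interval 0.115% to 22.8%), which is near the background of 4.76% and is no result about this gene. The binomial interval treats the circRNAs as independent, although many share ends. A count of 1 cannot be told from a count of 0 with so few circRNA reads, so the circRNA with the read is not shown to differ from the others. None of the 9 circRNAs with the start codon had a read.

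Among host genes by the table's symbols, CG17646 was second to eEF2 (listed as Ef2b), with 23 circRNAs, and came before eEF1alpha1 (Ef1alpha48D), with 20. The median over 1193 symbols was 1. Both of these genes, which encode translation elongation factors, had spans away from exon blocks, with 0 of 23 and 0 of 20 matching. They have 3 and 0 internal exon starts, against 10 in CG17646, which limits the exon blocks that could match. Whether the lack of matches follows from this gene structure was not tested. Their median spans of 248 and 258.5 bp contrast with 2068.5 bp for CG17646 (order-statistic interval 628 to 3702). That interval also treats the circRNAs as independent, although many share ends. The median over the table was 1042 bp.

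The other hosts with at least 15 circRNAs were pan, a transcription factor gene of the Wnt pathway, with 18, mbl, a splicing regulator gene, and slo, a potassium channel gene, with 17 each, and nolo (CG31619) with 15. Spans matched exon blocks for 16 circRNAs of pan, 7 of mbl, 17 of slo and 13 of nolo, against 15 of CG17646. Their median spans were 10266 bp, 20304 bp, 5655 bp and 2745 bp. The median for CG17646 was therefore the lowest of these 5 genes.

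Of these 5 genes, CG17646 had the highest share of listed pairs among the possible pairs of its used exon starts and ends. The list held 15 of 19 possible pairs for CG17646 (78.9%), 7 of 11 for mbl (63.6%), 13 of 30 for nolo (43.3%), 17 of 40 for slo (42.5%) and 16 of 43 for pan (37.2%). CG17646 and mbl, with the highest shares, also had the fewest possible pairs. They had the fewest internal exon starts too, 10 each against 14 in pan, 20 in nolo and 32 in slo. Whether the share follows from such gene structure was not tested. The most used start carried 6 circRNAs in CG17646, 8 in pan and mbl, 4 in slo and 3 in nolo. These are 5 genes with few circRNAs each, and the differences were not tested.

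**Figure D4:**
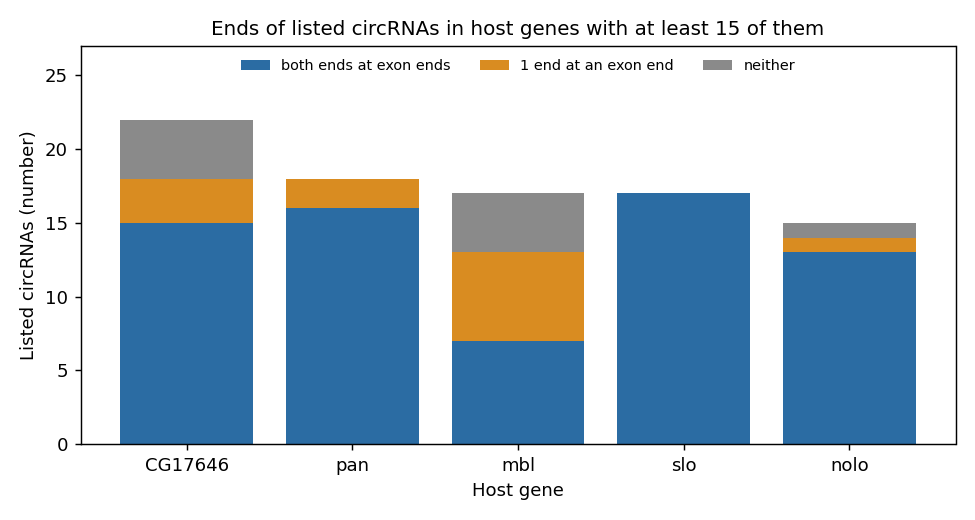
Number of listed circRNAs (vertical axis) of the host genes with at least 15 of them and any span equal to an exon block, divided by whether both ends, 1 end or neither lie on exon ends. CG17646 has 15 with both, 3 with 1 and 4 with neither, while all 17 of slo have both. eEF2 and eEF1alpha1, with 0 matching spans, are not drawn, since their exons could not be placed.

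Of the 52 genes of the ABC family examined, which include its ABCE and ABCF subfamilies, 5 had a listed circRNA. Of the 15 in the ABCG subfamily 3 had one. Both counts include CG17646, which was chosen for its circRNAs. The share of all annotated genes with a listed circRNA is not given here. These counts therefore do not tell whether the family is rich or poor in such genes. Besides CG17646 these were Atet and CG32091 of the ABCG subfamily and CG7627 and Mrp4 of the ABCC subfamily, with 1 circRNA each. Those of Atet and CG32091 matched 1 exon with the start codon, over 508 and 578 bp. The 252 bp circRNA of CG7627 matched 2 exons with the start codon, and the 209 bp circRNA of Mrp4 matched no exon block. None of these 4 circRNAs had a read. Of the 26 listed circRNAs of the genes examined, 22 came from CG17646, which was chosen for its number of listed circRNAs.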

How the data were processed

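Ribosome footprints of fly heads were sequenced in 4 libraries. Cutadapt 1.9.1 and build dm3 were used, per the submitters' processing notes, and ribosomal RNA reads were removed, per the file headers. Neither the aligner nor the circRNA caller is named, and the criterion for listing a circRNA is not given in the sources used here. The authors deposited 1 table of whole-number read counts per circRNA, not normalized. The reads presumably span back-splice junctions, although the table does not say so. The 4 columns per library were not used, since the labels do not tie head numbers to buffers. The library that gave the single CG17646 read is therefore not given here. The planned edgeR comparison was therefore not run.

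Spans were compared with exon blocks in Ensembl release 115 on BDGP6. No coordinate was converted. For each gene, the offset that put most distinct circRNA ends on exon ends placed the exons. Intron lengths are the shortest over transcripts, for exons with introns on both sides. Accessions were matched with RefSeq's release 6 gene table. The matching code was run on exon blocks drawn from the annotation, which match by construction, and on random spans. The share of random spans that matched is not given here. No group test was made, because rows of 1 gene are not replicates. The listed circRNAs had 230 reads over all samples, and the total depth of the libraries is not given here. Members, gene lists and comparison genes (at least 15 circRNAs) were chosen with earlier results of these data known. Some transporter genes of the planned list are not reported here. Python 3.11.15, pandas 2.3.3, scipy 1.17.1 and matplotlib 3.10.9 were used.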

Additional observations from a re-analysis of the deposited data

How the results depend on the processing

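The number of listed circRNAs (22), the ends at exon starts (15) and exon ends (18), the start codon count among matched circRNAs (6) and the median span were within 1.5 times, or within the interval, of their values under each alternative run. The start codon count could not change in its alternative run, which asked for every matching transcript, because the transcripts share exons 2 to 12. Merging starts within 3 or 10 bases gave 8 in place of 9. With the length taken as 1 base longer, 0 spans matched an exon block in place of 15, because the equality is exact. With at least 2 reads, 0 circRNAs had a footprint in place of 1. The counts of host genes with all used exon starts beside longer introns, chosen after seeing the data, went from 10 to 16 with the longest intron and to 48 with at least 2 used and unused exons, where more genes qualify. The count for ends went from 12 to 60, and for both sides from 1 to 2 and to 14. No paired analysis was possible because the labels tie none of the 4 library columns to a sample, so these columns were not used and no replicate was left out. The detergent alternatives were not run. The small number of circRNA reads limits the counts: 1 read cannot rank the circRNAs.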

Other observations

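The summed annotated exon length of the 15 circRNAs with both ends on exon ends was a multiple of 3 for 3 of them. This bears on whether a reading frame would stay the same past the back-splice. The lengths hold only if every annotated exon is kept and every intron removed, which was not observed. The 3 were exons 2 to 7, with 1257 bases and the start codon, exons 4 to 5, with 342 bases, and exons 9 to 10, with 270 bases. Among all listed circRNAs, 35.7% of the 1918 with 1 matching block had such a length. For the circRNA with the footprint read it was 722 bases, which leaves a remainder of 2. No sequence of the gene was used here, so stop codons in the frames past the junction were not examined.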
